A study of Saccharomyces cerevisiae with 9 samples.

Results

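The heat shock chaperone genes were examined in WT Saccharomyces cerevisiae, in the total histone MNase-Seq data of the study. The set was chosen by gene name and holds 10 genes, of which 6 had a row in both deposited tables, out of 2426 genes in all. The paper describes its profiled genes as protein-coding and not overlapping. "All genes" below means these 2426 genes and not every gene of yeast. HSP104 (YLL026W), HSP78 (YDR258C), HSP82 (YPL240C), HSC82 (YMR186W), SSA1 (YAL005C) and SSA4 (YER103W) were present. HSP26 (YBR072W), HSP12 (YFL014W), HSP30 (YCR021C) and HSP42 (YDR171W) had no row and were not analysed here. No MNase-Seq value entered the rule that chose the genes, but earlier results of these data were known when they were chosen.

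The series holds 9 samples, and the 1 sample with tables used here is the WT total histone MNase-Seq. The other 8 are ChIP-exo of Rpb3-FLAG or Nrd1-TAP from RTR1 deletion (rtr1Δ) and WT cells, not analysed here. The cells of the MNase-Seq sample had a wild type genotype and an OD600 of 0.8 at harvest, and neither the labels nor the methods name a heat treatment. With 1 sample there was no replicate error, so each gene is described by its level and by its rank among the 2426 genes, with no test and no p-value. Neighbours in such an order, for example SSA1 with 9.95 RPM (read coverage scaled to the number of mapped reads) and HSP104 with 9.62 RPM upstream of the TSS, cannot be ranked beyond a replicate spread, which is not known.

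Heat shock chaperones bind unfolded proteins, and many of their genes are transcribed strongly within minutes of a temperature shift. Hsf1, the heat shock transcription factor, binds heat shock elements, which are inverted repeats of the unit GAA, and Msn2 and Msn4 bind the stress response element AGGGG. Hsp104 and its mitochondrial relative Hsp78 are disaggregases that pull proteins out of aggregates. Hsp82 and Hsc82 are the Hsp90 chaperones of budding yeast, HSP82 being the copy that heat induces and HSC82 the copy made at a high level without stress. Ssa1 and Ssa4 are cytosolic Hsp70 chaperones, of which Ssa1 is made during normal growth and Ssa4 mainly under stress. In MNase-Seq the nuclease removes DNA that is not wrapped in nucleosomes, so that the sequenced DNA marks where nucleosomes lie, and most yeast promoters show a nucleosome-depleted region just upstream of the transcription start site (TSS), followed by the +1 nucleosome.

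The heat shock elements of the 6 promoters are shown here because 5 of these genes lacked the usual low signal just upstream of the TSS. The stretches come from the R64 assembly of RefSeq, which is the assembly of sacCer3, are written 5′ to 3′ on the strand of the gene, and carry the element in capitals. They lie at chrXII:88306-88353 for HSP104, chrIV:974458-974505 for HSP78, chrXVI:98838-98875 for HSP82, chrXIII:632123-632192 for HSC82, chrI:141550-141810 for SSA1 and chrV:364321-364358 for SSA4.
HSP104: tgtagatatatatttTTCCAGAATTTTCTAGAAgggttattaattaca
HSP78: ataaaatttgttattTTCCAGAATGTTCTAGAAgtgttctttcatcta
HSP82: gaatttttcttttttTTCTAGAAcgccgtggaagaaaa
HSC82: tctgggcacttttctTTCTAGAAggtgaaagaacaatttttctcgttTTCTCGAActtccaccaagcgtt
SSA1: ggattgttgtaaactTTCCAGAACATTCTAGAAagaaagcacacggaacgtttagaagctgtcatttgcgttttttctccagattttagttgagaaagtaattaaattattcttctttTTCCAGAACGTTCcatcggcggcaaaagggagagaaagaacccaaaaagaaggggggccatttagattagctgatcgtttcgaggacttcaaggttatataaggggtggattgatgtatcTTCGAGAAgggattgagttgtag
SSA4: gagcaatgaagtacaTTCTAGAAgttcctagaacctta

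An element pair was searched as GAANNTTC or TTCNNGAA, each of which is its own reverse complement, so both strands were covered. All 6 genes held such a pair within 400 nucleotides upstream of the start codon, against 30.1% of 2425 genes in windows of the same length. In windows from 250 nucleotides before to 50 after the start codon, 4 of 6 genes held a pair, against 24.2% of genes, since the elements of HSP104 and SSA4 lie further upstream. The 400-nucleotide window was set after that was seen. Triplets, which are overlapping pairs that share a unit, occurred in HSP104, HSP78 and SSA1, 3 of 6 genes, against 1.32% of genes in the 400-nucleotide windows. In the windows from 250 nucleotides before to 50 after the start codon only HSP78, 1 of 6 genes, held one, against 0.907% of genes. HSP104, high just upstream of the TSS, and HSP78, low there, thus both hold a triplet in the 400-nucleotide windows. Their 3 overlapping pairs start at -302 and -247 nucleotides from the start codon, while in HSP82 and SSA4 the pair shown stands alone, at -235 and -253 nucleotides. Further pairs lie at -67 nucleotides in HSP82 and at -48 nucleotides in HSC82 and are not printed.

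The stress response element AGGGG, searched on both strands, was present in 5 of 6 genes, all but HSC82, against 29.7% of genes in the 400-nucleotide windows. TATAAA was present in 4 of 6 genes, HSP78, HSP82, HSC82 and SSA4, against 54.5% of genes. The run AAAAAA was present in all 6, against 82.5% of genes. In the windows from 250 nucleotides before to 50 after the start codon AGGGG was present in 5 of 6 genes, against 21.6% of genes. There TATAAA was present in 3 of 6, against 43.2%, and AAAAAA in 5 of 6, against 72.3%. These matches describe the letters of the promoters and say nothing of whether a factor was bound. Their positions are counted from the start codon, whereas the MNase-Seq bins are counted from the TSS, and the distance between these points was not given in the tables.

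Upstream of the TSS, 5 of the 6 genes had more MNase-Seq signal than most genes where the average gene is depleted. Over the depletion bins, which are the 4 bins of 25 nucleotides that end with the bin at -50 nucleotides, the 6 genes had a median of 8.64 RPM, against 4.38 RPM for all genes, whose quartiles were 3.23 and 5.72 RPM. SSA4 had 11.1 RPM (rank 2420 of 2426, counted from the lowest), SSA1 had 9.95 RPM (rank 2408) and HSP104 had 9.62 RPM (rank 2398). HSC82 followed with 7.65 RPM (rank 2271) and HSP82 with 7.07 RPM (rank 2181). The Hsp70 genes and HSP104 thus lay among the highest of all genes, and the Hsp90 genes somewhat lower in the same upper part.

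HSP78 was the exception, with 3.15 RPM (rank 566), which is below the median gene. It was the only 1 of 6 genes below the median gene at the depletion, against 50% of all genes by definition. The other 5 of 6 genes lay among the highest 25% of all genes. These counts describe 6 genes that were picked by name and were not tested. The signal corresponds to between 104.9 reads over a base in HSP78 and 371 in SSA4.

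**Figure D1:**
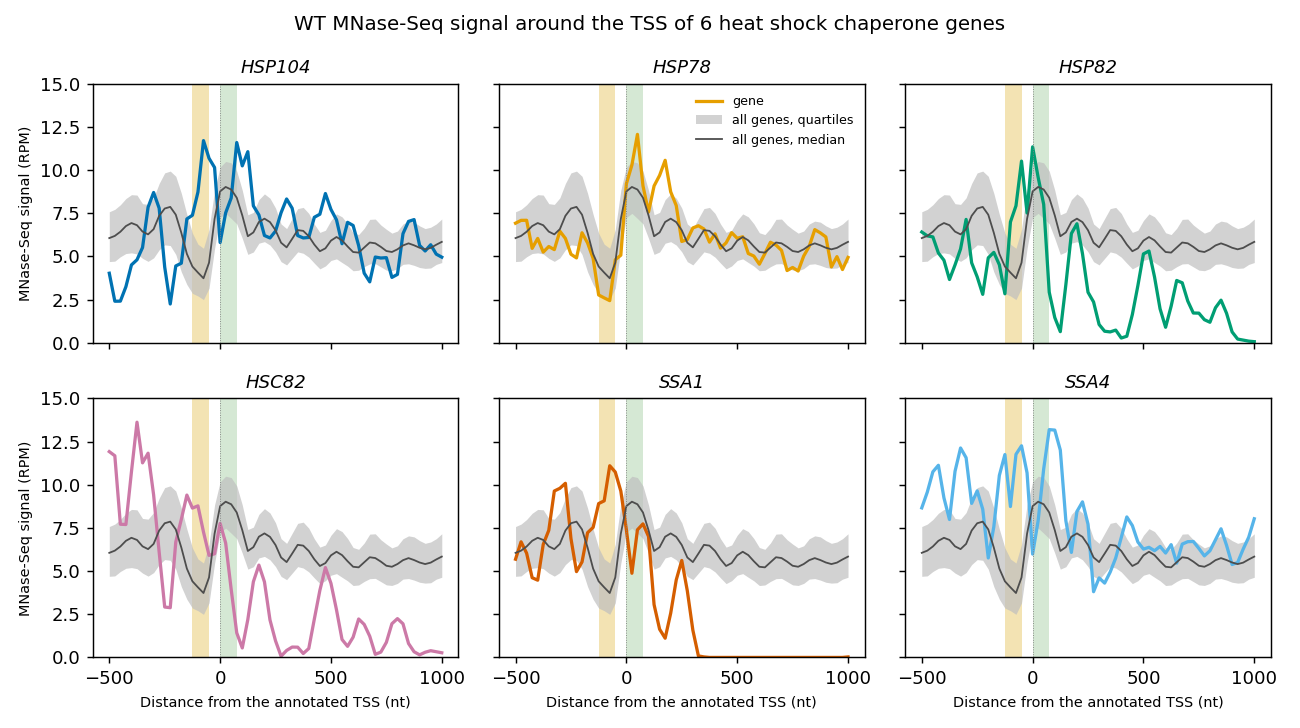
MNase-Seq signal (RPM) of each of the 6 genes from -500 to 1000 nucleotides around the annotated TSS (coloured line), over the median (dark line) and quartiles (grey) of 2426 genes, with the depletion bins shaded yellow and the +1 bins green. HSP78 dips to 2.43 RPM at -75 nucleotides as the median gene does, whereas HSP104, SSA1 and SSA4 reach 11.7, 11.1 and 11.8 RPM in that bin.

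The profiles of single genes show where this signal lay. In HSP104 the signal was 11.7 RPM at -75 nucleotides, fell to 5.80 RPM at the TSS itself and reached 11.6 RPM at 75 nucleotides. SSA4 had the same order of high and low bins, with 12.3 RPM at -50 nucleotides, 5.98 RPM at the TSS and 13.2 RPM at 75 nucleotides. SSA1 had 11.1 RPM at -75 nucleotides, 4.87 RPM at 25 nucleotides and 7.73 RPM at 75 nucleotides. In these 3 genes a peak stood where the median gene has its minimum of 3.73 RPM, and a dip stood at or just after the TSS, where the median gene has 8.76 RPM.

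The Hsp90 genes differed from this order and from each other. HSP82 had 2.83 RPM in the outermost of the depletion bins, 10.5 RPM at -50 nucleotides, 11.3 RPM at the TSS and 2.93 RPM at 75 nucleotides. HSC82 had 9.40 RPM at -150 nucleotides, 5.91 RPM at -50 nucleotides and 7.76 RPM at the TSS, and 1.42 RPM at 75 nucleotides. Between -50 and 100 nucleotides both thus had their highest bin at the TSS, upstream of the highest bin of the median gene at 25 nucleotides. HSP78 was low and high where the median gene is, with 2.43 RPM at -75 nucleotides and 12.1 RPM at 50 nucleotides.

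The low signal of the 5 other genes lay further upstream. The bin of lowest signal between -400 and 0 nucleotides was at -225 nucleotides in HSP104, HSP82 and HSC82, at -200 in SSA4 and at -75 in HSP78, against quartiles of -225 and -75 nucleotides for all genes. In SSA1 it was at -400 nucleotides, the edge of the stretch searched, and at -225 nucleotides when the search began at -300 or -250. So 5 of 6 genes had their lowest bin at least 200 nucleotides upstream of the TSS, against 29.3% of all genes. With the search begun at -300 or -250 nucleotides the 5 genes stayed past 200 nucleotides, against 21.6% and 14.6% of all genes. The measure was chosen after the profiles had been seen.

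These low bins were not equally deep. HSP104 had 2.24 RPM in its lowest bin, HSP78 had 2.43 RPM, HSP82 had 2.80 RPM and HSC82 had 2.88 RPM, against a median of 2.19 RPM for all genes. SSA1 and SSA4 had 4.47 and 5.76 RPM, higher than in 95.7% and 99.7% of genes. The lowest upstream bin of SSA4 was thus higher than the signal of the median gene at its depletion.

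**Figure D2:**
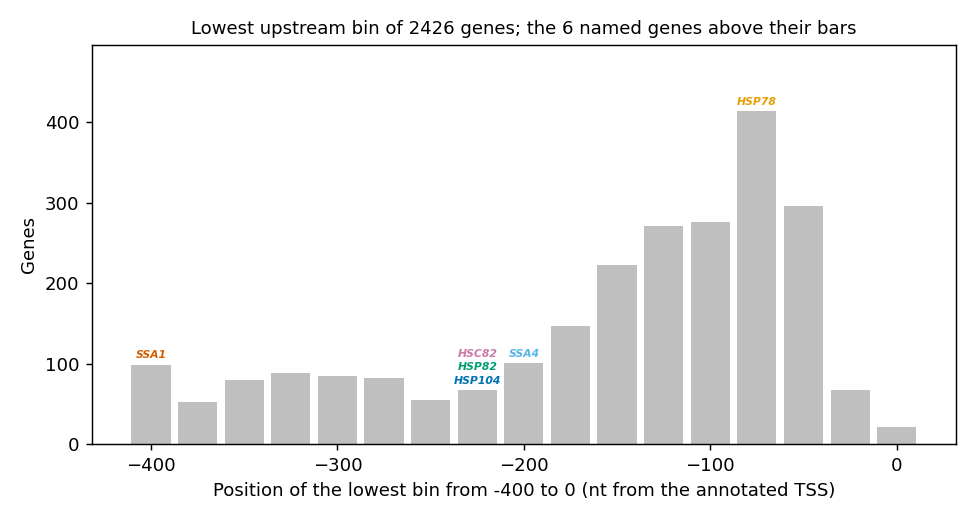
Number of genes (y axis) by the position of the lowest bin between -400 and 0 nucleotides from the annotated TSS (x axis), for all 2426 genes, with the names of the 6 heat shock chaperone genes above the bar each belongs to. HSP78 lies at -75 nucleotides in the tallest bar, and HSP104, HSP82, HSC82, SSA4 and SSA1 lie at -200 nucleotides or further upstream.

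The space upstream differed among the genes. The next gene upstream lay 886 nucleotides from the start codon in SSA4 (RPS8B), 858 in HSP82 (YAR1), 742 in SSA1 (EFB1), 467 in HSP104 (ISA1), 387 in HSP78 (YAP6) and 384 in HSC82 (RTP1), against a median of 472.5 nucleotides over 2424 genes. HSP82 and SSA1 share their upstream region with a divergent gene, as do 51.4% of all genes. Among all genes the lowest bin lay at least 200 nucleotides upstream in 40.4% of the 1131 genes with a gap of 500 nucleotides or more and in 19.4% of the 1293 with a shorter gap. HSP104 and HSC82 had their lowest bin there with a gap under 500 nucleotides. The part of the gap in these positions was not tested.

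At the +1 peak the 6 genes were spread over most of the range of all genes. Over the bins from 0 to 75 nucleotides they had a median of 8.14 RPM, against 8.77 RPM for all genes. HSP78 had 10.2 RPM (rank 1869), SSA4 had 9.50 RPM (rank 1586), HSP104 had 8.32 RPM (rank 1013), HSP82 had 7.96 RPM (rank 850), SSA1 had 6.85 RPM (rank 404) and HSC82 had 4.93 RPM (rank 96). Thus 2 of 6 genes, HSP78 and SSA4, lay above the median gene, against 50% of all genes. With the highest bin around the +1 position in place of the mean of fixed bins, 4 of 6 lay above it, HSP104 and HSP82 being added. With bin centres HSP82 (64.8% of genes lower) took the place of SSA4 (38.5%). With each gene scaled by its own mean, HSP78, HSP82 and SSA1 lay above the median gene and SSA4 did not. The means of HSP82 (3.65 RPM, rank 34) and SSA1 (3.46 RPM, rank 27) over the window were among the lowest. They include the low body bins of these genes, described below.

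The signal of the +1 bins divided by that of the depletion bins sets both against each other within a gene. HSP78 had a ratio of 3.23, HSP82 1.13, HSP104 0.865, SSA4 0.854, SSA1 0.688 and HSC82 0.645, against a median of 2.00 for all genes. Only HSP78, 1 of 6 genes, had a +1 signal at least 2 times the depletion, against 49.9% of all genes. In 4 of 6 genes, HSP104, HSC82, SSA1 and SSA4, the depletion bins had more signal than the +1 bins, against 8.66% of all genes. Narrower bins, wider bins and bin centres left both counts at 1 and 4 of 6. With the lowest and highest bins in place of means, 4 of 6 genes passed the ratio of 2, against 91.5% of all genes, and no gene can have a lowest bin above its highest, since the stretches searched overlap.

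**Figure D3:**
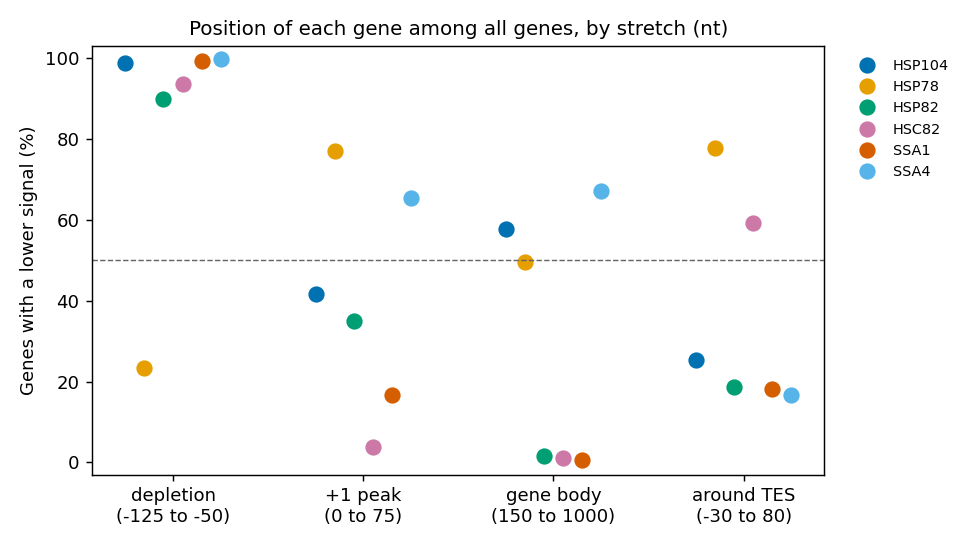
Share of the 2426 genes with a lower signal (y axis, %) than each heat shock chaperone gene (coloured points) at the depletion, the +1 peak, the gene body and around the TES (x axis), with a dashed line at 50%. At the depletion 5 genes lie between 89.9% and 99.7% and HSP78 at 23.3%, and over the gene body HSP82, HSC82 and SSA1 lie at or under 1.57%.

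Over the gene body 3 of the 6 genes lay near the median gene and the other 3 among the lowest of all genes. Between 150 and 1000 nucleotides SSA4 had 6.47 RPM (rank 1628), HSP104 had 6.19 RPM (rank 1402) and HSP78 had 5.95 RPM (rank 1201), against a median of 5.97 RPM for all genes. HSP82 had 2.22 RPM (rank 39), HSC82 had 1.61 RPM (rank 28) and SSA1 had 0.600 RPM (rank 17). Thus 4 of 6 genes lay below the median gene, against 50% of all genes. HSP78 was close to the middle, with 49.5% of genes lower, and stayed below the median gene in 6 of 11 alternatives. With each gene scaled by its own mean HSP78 lay above 66.3% of genes and SSA4 above 7.91%. In SSA1 the 25 bins from 375 to 975 nucleotides are given as 0, as every value under the worth of 1 read was set to 0.

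HSP82, HSC82 and SSA1 each have a near-identical copy in the genome. The low bins lay in the shared sequence at the distances from TSS to start codon fitted below. Of the 50-mers in the first 1000 coding nucleotides, 50% had no near copy (at most 3 differences) elsewhere in HSP82, 47.9% in HSC82 and 24% in SSA1, against 100% in HSP104, HSP78 and SSA4. The coding sequences of HSP82 and HSC82 were 91.8% identical and those of SSA1 and SSA2, another cytosolic Hsp70, were 96.4% identical, while SSA1 and SSA4 were 74.7% identical. Allowing no difference, 94.8% of the 50-mers of HSP82 and of HSC82 and 44.8% of those of SSA1 occurred once.

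The following stretches show both states, with the bases that differ in capitals. The place of the HSP82 and HSC82 stretches relative to the signal rests on the distances from TSS to start codon fitted below. Coding nucleotides 111 to 170 of HSP82 (chrXVI:98456-98515) and HSC82 (chrXIII:632465-632524) differ at 7 positions and lie in a part with signal.
HSP82: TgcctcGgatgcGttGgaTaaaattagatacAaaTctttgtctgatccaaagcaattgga
HSC82: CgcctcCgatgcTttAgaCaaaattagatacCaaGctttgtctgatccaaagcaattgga

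Coding nucleotides 311 to 370 of HSP82 (chrXVI:98256-98315) and HSC82 (chrXIII:632665-632724) do not differ, and lie in a part where both genes have little signal.
HSP82: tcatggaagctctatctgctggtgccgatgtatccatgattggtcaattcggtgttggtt
HSC82: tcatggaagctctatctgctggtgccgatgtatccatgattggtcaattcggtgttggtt

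Coding nucleotides 421 to 480 of SSA1 (chrI:140952-141011) and SSA2 (chrXII:97006-97065) do not differ either, and lie in the part of SSA1 given as 0.
SSA1: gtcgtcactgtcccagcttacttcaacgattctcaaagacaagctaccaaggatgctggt
SSA2: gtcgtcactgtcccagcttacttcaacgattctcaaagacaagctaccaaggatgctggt

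To set signal and sequence side by side, the distance from TSS to start codon was taken as the one of 0 to 200 nucleotides at which the share of 50-mers without a near copy followed the signal best. It was 60 nucleotides in HSP82, 30 in HSC82 and 20 in SSA1, and the Pearson correlation over the 61 bins was 0.75, 0.73 and 0.90. The choice of the distance raises these values, and the bins overlap and come from 1 sample. Allowing 0, 1 or 2 differences in place of 3 gave correlations of 0.33 to 0.69 in HSP82, 0.30 to 0.64 in HSC82 and 0.76 to 0.88 in SSA1.

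The following means were taken at the same distances, whose choice to match the signal also favours a contrast between the bins. At these distances the body bins of HSP82 without near copies averaged 4.05 RPM (10 bins), and those within near copies 0.293 RPM (7 bins). HSC82 had 3.33 RPM (12 bins) without and 0.351 RPM (9 bins) within near copies. SSA1 had 0.00532 RPM in 28 bins within near copies and a single body bin without, at 2.56 RPM. Over all genes the 5th percentile of body signal was 3.86 RPM and the lower quartile 5.17 RPM, so that the bins without near copies of HSP82 stood between these values and those of HSC82 below both. Near copies also reach into the +1 bins, with 6.24% of 50-mers free of them at 75 nucleotides in HSC82 and 60% in HSP82. The bins upstream of the TSS hold none in any of the 3 genes at these distances.

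**Figure D4:**
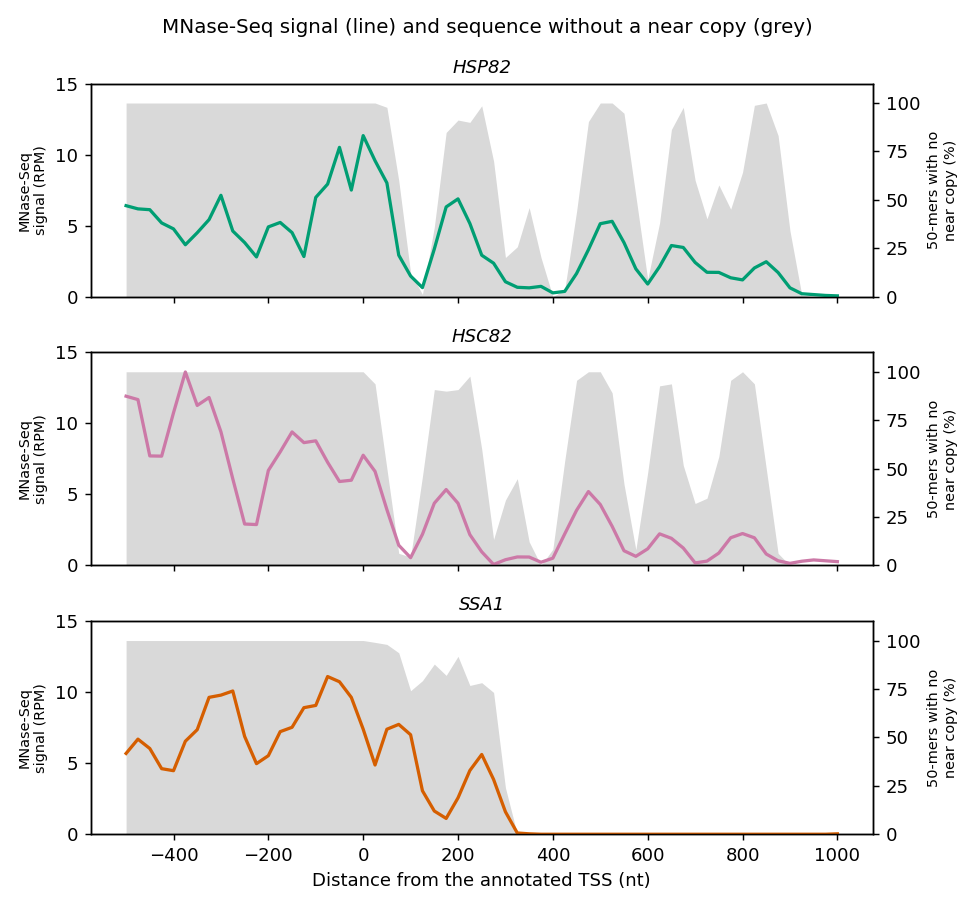
MNase-Seq signal (coloured line, left axis, RPM) of HSP82, HSC82 and SSA1 by distance from the annotated TSS, over the share of 50-mers without a near copy elsewhere in the genome (grey, right axis, %), placed at the distance from TSS to start codon that matched best. At this distance, which was fitted to the signal shown, the signal is low where the grey area is low, at 0.293 RPM in HSP82 and 0.351 RPM in HSC82. SSA1 is given as 0 from 375 to 975 nucleotides.

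The same held over the table as a whole. In the 72 genes with under 60% of 50-mers free of near copies the median body signal was 2.17 RPM and 70 lay below the median gene, against a median of 6.08 RPM in the 2230 genes with no near copy. Of the 50 genes of lowest body signal, 43 belonged to those 72. How reads with more than 1 match were treated in mapping is not given in the sources used here, and its part in the low signal was not tested. In HSP82, HSC82 and SSA1, fewer nucleosomes over the body and reads lost to near copies cannot be told apart. Without these genes 1 of 3 genes, HSP78, lay below the median gene over the body, and 2 of 3 had more signal in the depletion bins than in the +1 bins.

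In the 3 genes without near copies the body showed separate peaks. HSP104 had peaks at 75, 300, 475, 575, 700 and 875 nucleotides, with 11.6 RPM at the peak nearest the TSS and 4.96 to 8.64 RPM at the others. SSA4 had peaks at 75, 225, 425 and 850 nucleotides, with 13.2, 9.01, 8.13 and 7.45 RPM. HSP78 had peaks at 50, 175, 650 and 850 nucleotides, the highest pair being 12.1 and 10.6 RPM. Of the peaks downstream of the TSS the nearest was the highest in each of the 3, and no bin of their bodies was under 3.52 RPM. Divided by its own mean over the window, which is high in SSA4 (7.99 RPM, rank 2350), the body of SSA4 lay above 7.91% of genes and not 67.1%.

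Around the transcript end site (TES) the median gene had a shallow minimum, and 4 of 6 genes lay below the median gene there. Over the bins from -30 to 80 nucleotides HSP78 had 8.01 RPM (rank 1887), HSC82 had 6.65 RPM (rank 1439), HSP104 had 4.37 RPM (rank 617), HSP82 had 3.83 RPM (rank 451), SSA1 had 3.78 RPM (rank 439) and SSA4 had 3.66 RPM (rank 408), against a median of 6.04 RPM and 50% of all genes below it. HSP78 had a peak of 11.5 RPM at -6.67 nucleotides, where the median gene had 6.12 RPM. HSP104 had its lowest bin at -33.3 nucleotides, with 1.19 RPM, and HSC82 at -60 nucleotides, with 1.55 RPM. HSP82 and SSA4 stayed low through these bins and reached 11.7 and 10.8 RPM at 160 and 133 nucleotides. Near copies were not searched around the TES, and their part in the signal of HSP82, HSC82 and SSA1 there was not tested.

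**Figure D5:**
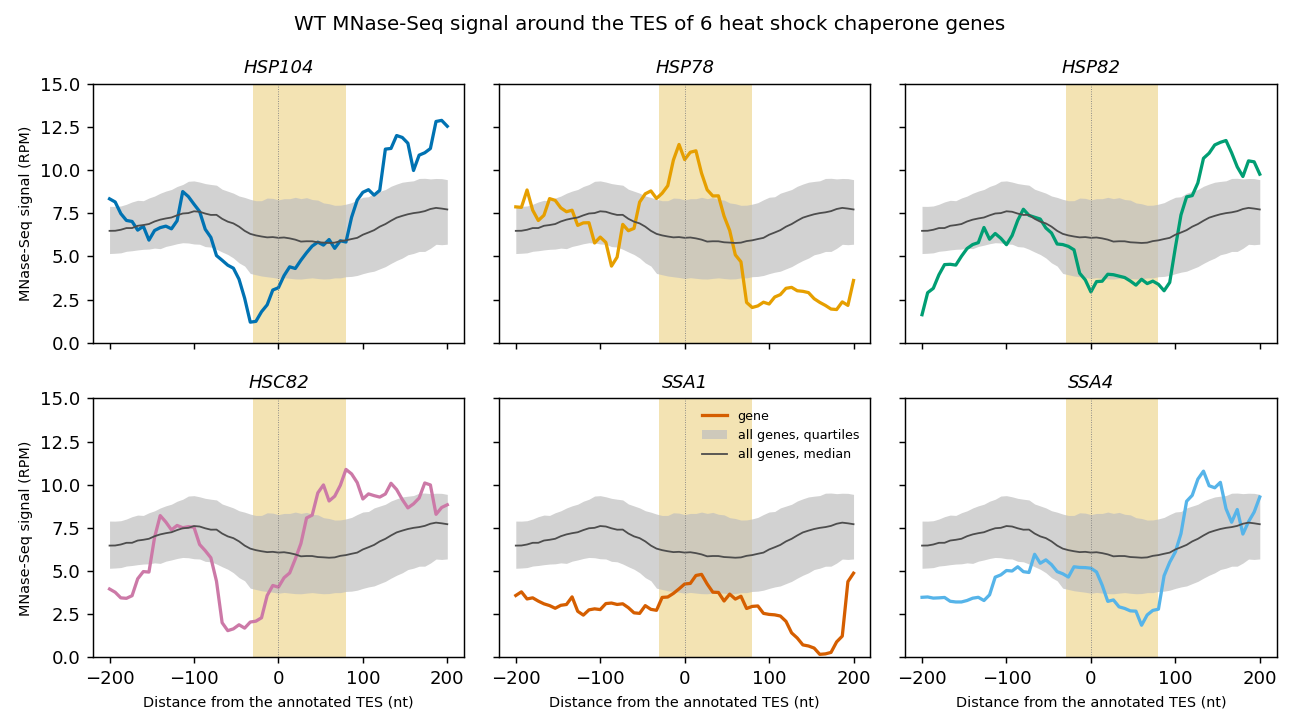
MNase-Seq signal (RPM) of the 6 genes from -200 to 200 nucleotides around the annotated TES (coloured line), over the median (dark line) and quartiles (grey) of 2426 genes, with the bins from -30 to 80 nucleotides shaded. HSP78 peaks at 11.5 RPM near the TES, and HSP104 and HSC82 dip to 1.19 and 1.55 RPM just upstream of it.

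Among themselves SSA1, SSA4, HSP82 and HSC82 had the most similar profiles. Over the 61 bins around the TSS, SSA1 and SSA4 correlated with an r of 0.75, HSC82 and SSA1 with 0.69, HSP82 and SSA1 with 0.68 and HSP82 and HSC82 with 0.65, against a median of 0.20 and an upper quartile of 0.37 over all pairs of genes. HSP104 had its highest r with SSA4, 0.38, and HSP78 with HSP82, 0.30. The pairs among HSP82, HSC82 and SSA1 share the low bins of their near copies, and all profiles come from 1 sample. Around the TES, HSP78 and HSP104 ran opposite, with an r of -0.77, and HSP82 and SSA4 alike, with an r of 0.86.

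The gene outside the set with the most similar TSS profile was found for each over the same 61 bins. It was ZRC1 for HSP104 (r of 0.71), MTR4 for HSP78 (0.80), SSA2 for HSP82 (0.73), TIF1 for HSC82 (0.84), LYS21 for SSA1 (0.85) and LYS20 for SSA4 (0.76). SSA2, TIF1, LYS21 and LYS20 themselves have near copies, with 24%, 0%, 22.9% and 19.8% of 50-mers free of them, against 100% in ZRC1 and MTR4.

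Other heat shock and chaperone genes were set beside these 6. Of 40 such genes 27 had a row, among them further Hsp70 genes, J-domain co-chaperones and Hsp90 co-chaperones. The list does not hold every member of these families. Their median was 4.84 RPM at the depletion, 7.85 RPM at the +1 peak and 4.91 RPM over the body, against 4.38, 8.77 and 5.97 RPM for all genes. At the depletion 10 of 27 lay below the median gene, at the +1 peak 9 of 27 lay above it and over the body 21 of 27 lay below it, against 50% in each case. The lowest bodies, of SSB2, SSB1, SSA2, UBI4 and HSP150 (0.0635 to 2.68 RPM), belong to genes with near copies, 6.25% to 65.6% of their 50-mers being free of them. The others have none, and most of them still lay below the median gene over the body. The part of near copies in these signals was not tested. In 9 of 27 the +1 signal was at least 2 times the depletion, against 49.9% of all genes, and in 5 of 27 the depletion had more signal than the +1 peak, against 8.66%. The lowest bin lay at least 200 nucleotides upstream in 13 of 27, against 29.3% of all genes.

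The ends of this list spanned a wide range. LHS1, an Hsp70 of the endoplasmic reticulum, had 1.01 RPM at the depletion and 11.2 RPM at the +1 peak, and SSB1, a ribosome-associated Hsp70, had 2.07 and 4.52 RPM. FES1, a nucleotide exchange factor of cytosolic Hsp70, had 8.40 RPM at the depletion and 7.85 RPM at the +1 peak, and SIS1, a J-domain partner of Hsp70, had 8.15 and 9.81 RPM. The 3 highest values of the 6 genes, in SSA4, SSA1 and HSP104, were above that of FES1, the highest of the 27. Among the SSA genes of cytosolic Hsp70, SSA1 and SSA4 had 9.95 and 11.1 RPM at the depletion, against 6.40 and 7.11 RPM in SSA2 and SSA3. The ribosome-associated SSB1 and SSB2 had 2.07 and 2.94 RPM.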

How the data were processed

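WT cells were profiled by total histone MNase-Seq in 1 sample. The authors treated chromatin with micrococcal nuclease, read the protected DNA by SOLiD sequencing, aligned it to sacCer3 with bfast and used ngs.plot for a coverage signal in RPM along 2426 genes. The version of ngs.plot and the extension of reads are not given in the sources used here. The methods state that the profiles of RNAPII gene classes by ngs.plot joined biological replicates, without saying whether this covers the MNase-Seq tables. Extension and averaging into bins widen peaks and fill troughs.

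The deposited tables have 101 columns per gene, of which 20 at either end only repeat the edge and were dropped. The 61 others were spread over -500 to 1000 nucleotides at the TSS and -200 to 200 at the TES. The edge values, 9704 in all, are whole multiples of 0.0300 RPM, which is then the worth of 1 read, in a library of 33313664 reads. Values under this worth were set to 0 before any measure was taken. At over 100 reads per base in the depletion bins, counting error was small beside the range over all genes. It was not small beside the gap between neighbours such as SSA1 and HSP104, with 332 and 321 reads per base. Counting error covers no difference between cultures.

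Rank is the number of genes with a lower value plus 1. The genes and lists were chosen with earlier results of these data known. The genes named are those with a row, for each the other gene with the most similar TSS profile, and the 2 lowest and 2 highest of the other heat shock genes at the depletion. SSA2 and SSA3 were named after their values were seen. Sequences, coding lengths and neighbours came from the R64 assembly of RefSeq, in which 2425 genes were found. For the shares per gene 50-mers were taken every 10 nucleotides, and for the comparison by bin at each nucleotide. Near copies were those that recur with at most 3 differences. Up to 5 were tried and 3 kept, since the search is complete to 3. A limit of 50% free of near copies was tried before 60%, and HSP82 lies at 50%. A peak stood at least 1 RPM above its surroundings. A bin counted as without near copies from 90% free and as within them up to 10%. The printed stretches were picked by hand after the values were seen.

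The alternatives covered the bounds and placement of bins, extremes in place of bins, the scale of each gene, the genes ranked against, a filter on low values and the members used. Ranks, window means and lowest bins were tested on simulated data. Computations used matplotlib 3.10.9, Biopython 1.88, pandas 2.3.3, numpy 2.4.6, scipy 1.17.1 and Python 3.11.15.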

Additional observations from a re-analysis of the deposited data

How the results depend on the processing

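Of 59 counts of genes recomputed under alternatives, 50 stayed within 1.5 times the value reported. Some of these could not change. The counts that compare the +1 and depletion bins within a gene are untouched by scaling each gene by its own mean. They are also untouched by a change of the genes ranked against that keeps all 6 members. A count can stay while the genes that make it up change, as at the +1 peak and over the gene body. With the lowest and highest bins in place of fixed bins, 4 genes lay above the median gene at the +1 peak, 4 had a +1 signal at least 2 times the depletion and 0 had a depletion above the +1 peak, against 2, 1 and 4 with fixed bins. The 0 follows from the overlap of the stretches searched, and 91.5% of all genes passed the ratio of 2 in this way. When the genes were limited to those with at least 99% unique 50-mers (2244 genes, 3 of the 6), 1 lay below the median gene over the body, 2 had more signal at the depletion and 2 lay below the median gene around the TES, and the same values of 1, 2 and 2 were found for the 3 genes without near copies among all genes. These last counts are out of 3 genes, whereas each was 4 of 6 with all the members. The genes left out, HSP82, HSC82 and SSA1, had the lowest body signal of the 6. The causes of the shifts were not tested. Under every alternative that kept them, HSP104, HSP82, HSC82, SSA1 and SSA4 stayed above the median gene at the depletion and HSP78 below it. The share of genes with less signal at the depletion ranged over 60.6% to 99.1% for HSP82, 89.4% to 99.1% for HSP104, at least 93.4% for the other 3 and 18.3% to 49.3% for HSP78. At the +1 peak the ranges were wide, 18.96% to 98.4% for HSP82, 10.3% to 96% for SSA1 and 23.5% to 90.6% for SSA4. The low ends for HSP82 and SSA1 came with wider and narrower bins and the high end for SSA4 with the highest bin. The others came with genes scaled by their own mean, which is low in HSP82 and SSA1 and high in SSA4. For HSP104 the range was 21.1% with bin centres to 74.2% with the highest bin. No paired analysis was possible because the single MNase-Seq sample has no partner. A single sample gives no replicate error. Depth limits little but the 0 given in SSA1, where a count of 0 allows up to 0.0901 RPM (3 reads). Those bins lie within near copies, so this limit covers the reads counted and not any reads lost to near copies.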

Other observations

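General stress response genes, a list of 23 that includes trehalose and antioxidant genes and regulators of the response, had a row for 9. At the depletion 2 of 9 lay below the median gene, against 50% of all genes, and in 3 of 9 the depletion bins had more signal than the +1 bins, against 8.66% of all genes. PGM2, a phosphoglucomutase of glycogen and trehalose synthesis, had 9.40 RPM at the depletion (rank 2392 of 2426) and 6.99 RPM at the +1 peak. MSN4, which encodes a regulator of this response, had 8.02 and 6.50 RPM. PNC1, a nicotinamidase, had 1.97 RPM at the depletion (rank 131) and 7.95 RPM at the +1 peak. The median of the 9 was 5.56 RPM at the depletion, against 4.38 RPM for all genes. SSA3 stands in this list as well as among the other heat shock genes.

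SSB1 and SSB2, ribosome-associated Hsp70 genes with coding sequences 97.4% identical, had 0.117 and 0.0635 RPM over the gene body. SSA2, the close relative of SSA1, had 1.06 RPM, and UBI4, which encodes ubiquitin as tandem repeats, had 2.08 RPM. PGM2, MSN4, PNC1, SSB2 and UBI4 were chosen after their values were seen.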
